A study of Mus musculus with 12 samples.

Results

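The genes described here are the nuclear genes for subunits of respiratory complexes II to V of mitochondria, with cytochrome c. They were taken by symbol from a table of gene counts of cultured mouse hematopoietic stem cells (HSCs): Sdha, Sdhb, Sdhc, Sdhd, Cyc1, Cycs and every symbol that begins with Uqcr, Cox4 to Cox8 or Atp5, without symbols marked as pseudogenes by "-ps". The rule found 50 genes of 53465 in the table: 4 for complex II, 9 for complex III, 1 for cytochrome c, 19 for complex IV and 17 for complex V. It used no measured value. It also took Cox6c2, which the GENCODE M21 annotation lists as a processed pseudogene, a gene copy made from an RNA, and Cox7a2l and Atp5s, whose products are not core parts of their complexes.

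The study asked how transcripts of cultured HSCs respond to NR (nicotinamide riboside), a vitamin B3 compound and precursor of the coenzyme NAD. Its 12 libraries form 4 groups of 3 samples. NR LT-HSCs were long-term HSCs, sorted from bone marrow as lineage-negative, Kit-positive, Sca1-positive, CD150-positive, CD48-negative and CD34-negative cells and grown for 2 days with 1 mM NR, renewed after 24 h. Control LT-HSCs were the same cells grown without NR. NR ST-HSCs and control ST-HSCs were short-term HSCs, which differ in the sort only by carrying CD34, grown with and without NR in the same way. The medium of all 4 groups was Stemline II, with the cytokines SCF (100 ng/ml) and Flt3 (2 ng/ml), so all had left the marrow and were under growth factors. The labels used here give no mouse strain, sex or age, and do not say whether the samples of a group came from separate mice or cultures, so p-values refer to the scatter among these samples alone, and that scatter may be technical.

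The mitochondrial respiratory chain takes electrons from nutrients and passes them to oxygen. Complex II (succinate dehydrogenase) takes them from succinate and is also an enzyme of the citric acid cycle, complex III hands them to cytochrome c, and complex IV (cytochrome c oxidase) hands them to oxygen. Complexes III and IV pump protons, which flow back through complex V, the ATP synthase. Complex II is encoded by nuclear genes alone, while complexes III, IV and V also hold subunits encoded by mitochondrial DNA. HSCs in the marrow are known to rely little on respiration while quiescent and to raise it when they are activated to divide and differentiate.

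Genes of the respiratory chain are known for promoters with sites for the transcription factors NRF1 and GABP, GABP being of the ETS family. RefSeq promoter windows (build GRCm38.p6, 250 bases before to 50 bases after the start) were found for 35 of the 50 genes. The NRF1 motif, 10 letters with 1 free position, whose matches are shown in capitals in the windows, was searched on both strands. It occurred in 10 of the 35 genes (28.6%), against 4.60% of 32851 windows over all genes. The ETS letters CCGGAAG, also on both strands, occurred in 12 of the 35 (34.3%), against 8.86% of all windows. A YY1 motif, searched by its usual core on both strands, occurred in 2 of the 35 (5.71%), against 2.75%, and CCAAT, on both strands, in 20 of the 35 (57.1%), against 37.4%. A gene was counted if any of its windows matched, while the shares over all genes are per window. The 35 genes had 38 windows. Of these 38, 10 held the NRF1 motif, 12 the ETS letters, 2 the YY1 motif and 21 CCAAT. A match is a stretch of letters and not a bound site. The following 5 windows were chosen after the matches were seen, to show 1 gene of each complex with an NRF1 match and Cox7a2l, a gene whose change was above 0 and whose window holds none. Each window is 300 bases long and is read 5′ to 3′ along the gene, with NRF1 matches in capitals and, in Cox6a1 alone, 1 ETS match near the start, also in capitals.
Sdha: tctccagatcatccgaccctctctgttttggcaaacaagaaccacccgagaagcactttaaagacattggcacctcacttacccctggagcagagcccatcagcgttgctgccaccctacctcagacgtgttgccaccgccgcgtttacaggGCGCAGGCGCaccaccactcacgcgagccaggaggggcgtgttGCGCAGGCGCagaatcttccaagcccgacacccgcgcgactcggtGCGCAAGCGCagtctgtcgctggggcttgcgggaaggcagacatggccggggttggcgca
Uqcrc1: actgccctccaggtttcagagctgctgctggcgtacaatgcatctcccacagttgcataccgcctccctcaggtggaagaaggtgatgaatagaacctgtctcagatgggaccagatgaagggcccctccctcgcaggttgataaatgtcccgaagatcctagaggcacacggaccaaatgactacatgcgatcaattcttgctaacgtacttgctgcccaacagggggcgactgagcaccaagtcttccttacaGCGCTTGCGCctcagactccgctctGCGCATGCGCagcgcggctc
Cox6a1: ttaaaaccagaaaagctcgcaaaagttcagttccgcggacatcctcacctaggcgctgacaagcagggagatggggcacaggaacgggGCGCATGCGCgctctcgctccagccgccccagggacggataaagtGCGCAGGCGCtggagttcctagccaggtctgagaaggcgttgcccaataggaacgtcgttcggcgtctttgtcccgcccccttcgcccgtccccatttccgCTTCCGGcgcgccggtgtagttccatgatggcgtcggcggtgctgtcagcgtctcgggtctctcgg
Atp5o: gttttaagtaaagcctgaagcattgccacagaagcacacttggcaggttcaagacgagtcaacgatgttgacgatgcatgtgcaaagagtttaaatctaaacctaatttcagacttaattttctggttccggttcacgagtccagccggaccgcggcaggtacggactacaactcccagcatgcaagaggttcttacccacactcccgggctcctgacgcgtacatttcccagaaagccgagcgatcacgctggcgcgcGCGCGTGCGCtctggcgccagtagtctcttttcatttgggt
Cox7a2l: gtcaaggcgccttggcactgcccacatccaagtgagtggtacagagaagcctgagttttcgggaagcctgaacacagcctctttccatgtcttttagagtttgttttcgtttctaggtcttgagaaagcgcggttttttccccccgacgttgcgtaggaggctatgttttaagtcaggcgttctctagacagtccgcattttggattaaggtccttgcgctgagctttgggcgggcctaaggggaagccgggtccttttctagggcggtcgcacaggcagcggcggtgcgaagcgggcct

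The Sdha window lies at chr13:74350191-74350490 on the minus strand, and its 3 NRF1 matches begin 98, 55 and 10 bases before the start. The Uqcrc1 window, at chr9:108936398-108936697 on the plus strand, holds 2 matches just after the start, and the Atp5o window, at chr16:91931581-91931880 on the minus strand, holds 1 there. In the Cox6a1 window, at chr5:115348909-115349208 on the minus strand, 2 NRF1 matches begin 162 and 117 bases before the start and the ETS match 16 bases before it. The Cox7a2l window is chr17:83514284-83514583 on the minus strand. All 10 genes with an NRF1 match were among those lower with NR below. They were 10 of 29 such genes with a window, and the other 6 genes with a window held 0 matches. Of the other motifs, ETS letters stood in 11 of the 29 and 1 of the 6, the YY1 motif in 2 of the 29 and 0 of the 6, and CCAAT in 16 of the 29 and 4 of the 6. The 6 include Cox7a1 and Cox7b2, at means of 0.603 and 0.191 CPM, where few counts limit any call. With 6 genes on one side, these motif counts are a description only.

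The libraries held 24.6 M to 35.5 M gene counts each. Levels are in CPM, counts set to a common total of gene counts per library and scaled between libraries by edgeR's TMM factors, which ran from 0.998 to 1.10 in NR libraries and from 0.947 to 0.988 in control libraries. Reads that fell in no gene made up a share that ran from 8.69% to 28.5%. It was over 20% in sample 3 of the NR LT-HSCs (28.5%) and sample 3 of the NR ST-HSCs (26.2%). Of the sort markers, Cd34 followed the labels. It averaged 242 ± 21.0 CPM in NR LT-HSCs and 259 ± 11.5 CPM in control LT-HSCs, against 704 ± 37.7 CPM in NR ST-HSCs and 627 ± 18.8 CPM in control ST-HSCs (SD, n = 3 each). Kit was high in all groups and Cd48 averaged at most 5.07 CPM. Ly6a, the gene of Sca1, for which both cell types were sorted as positive, averaged 32.7 ± 8.27 CPM in NR LT-HSCs and 37.6 ± 9.39 CPM in control LT-HSCs, but 8.04 ± 2.18 CPM in NR ST-HSCs and 6.24 ± 1.00 CPM in control ST-HSCs (SD, n = 3 each). Slamf1, the gene of CD150, averaged 29.4 ± 5.36 CPM in NR LT-HSCs and 39.0 ± 4.17 CPM in control LT-HSCs, and 12.1 ± 1.54 CPM in NR ST-HSCs and 18.9 ± 1.29 CPM in control ST-HSCs. It was lower with NR over both cell types (-0.53 ± 0.10, adjusted p = 0.0014), and the part of this in the results below was not tested.

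Of the 50 genes, 48 passed the filter on low counts and were tested, and 43 of these averaged at least 5 CPM. Cox8b and Cox8c, the muscle and testis forms of 1 subunit of complex IV, were not tested and had at most 1 and 12 counts in a library.

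With NR, transcripts of most of these genes were lower in both cell types. In LT-HSCs, 34 of 48 were lower and 0 higher at an adjusted p under 0.05, where 7.58% of all 19830 genes tested were called lower and 2.38% higher. In ST-HSCs, 30 were lower and 0 higher, where 11.1% of all genes were called lower and 5.82% higher. Averaged over both cell types, 39 were lower and 0 higher, against 16.1% lower and 7.88% higher among all genes. Since these genes are abundant and abundant genes were called more often, the share among the 5400 genes at 50 CPM or more is the closer measure: 18.9% of those were lower in LT-HSCs and 25.9% in ST-HSCs, and 36.2% over both. The median log2 change of the 48 genes was -0.36 in LT-HSCs (all genes tested 0.04), -0.31 in ST-HSCs (all genes -0.03) and -0.32 over both (all genes 0.03). Among the genes at 50 CPM or more the median was -0.08 in LT-HSCs, -0.12 in ST-HSCs and -0.10 over both, which is closer to that of the 48. As a change in level, the averaged median fell by 20.1%. The counts for 1 cell type rest on single libraries. On the same genes tested, the 34 of LT-HSCs became 16 without NR LT-HSC sample 1, 22 without NR LT-HSC sample 3 and 18 without control LT-HSC sample 2, and the 30 of ST-HSCs became 14 without NR ST-HSC sample 3, 19 without NR LT-HSC sample 2 and 18 without control ST-HSC sample 2. The averaged count ran from 36 to 40 in these fits. With the filter on low counts applied again after a library was left out, the counts were 0 to 20 in LT-HSCs, 1 to 16 in ST-HSCs and, over both, 17 to 35, whichever of the 12 libraries was left out. The lowest counts over both were 22 without NR LT-HSC sample 1, 20 without control LT-HSC sample 1, 17 without control LT-HSC sample 2 and 23 without control ST-HSC sample 1. Calls over all genes fell as well in the fits with the filter applied again. There, 101 to 851 genes were lower in LT-HSCs, 398 to 1256 in ST-HSCs and 1265 to 1764 over both, against 1503, 2193 and 3189 in the main fit. On the same genes tested, the counts over all genes were 835 to 1505, 1010 to 2423 and 2165 to 3156. In these bulk samples, a lower share of cells of a type and less RNA per cell cannot be told apart.

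The same split shows in the single libraries. All 3 NR samples lay below all 3 control samples for 40 of the 48 genes in LT-HSCs, against 15.9% of all genes tested, for 41 in ST-HSCs, against 20.9%, and for 39 in both, against 11.5%. The 50 genes together took 0.887%, 0.956% and 0.897% of the gene counts in the NR LT-HSC libraries, against 1.08%, 1.14% and 1.09% in control LT-HSCs. In ST-HSCs they took 0.937%, 0.923% and 0.872% with NR, against 1.08%, 1.08% and 1.08% in control culture. These shares use no scaling factor. With NR the mean share fell by 17.3% in LT-HSCs, and in ST-HSCs it fell by 15.8%.

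**Figure D1:**
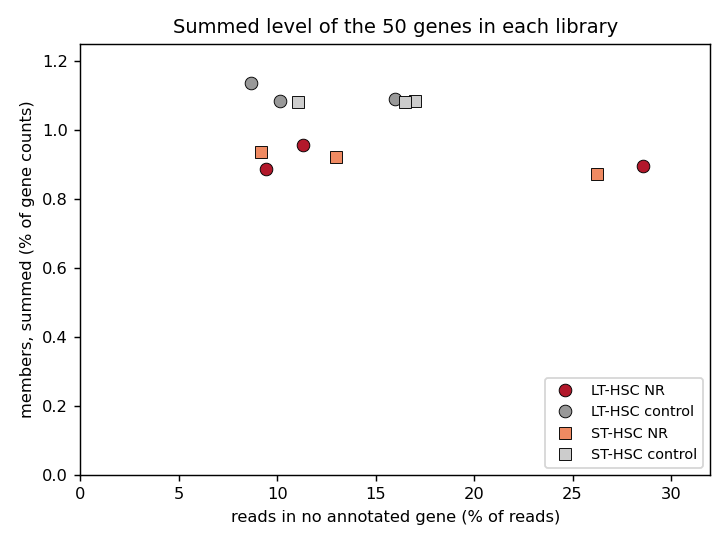
Summed level of the 50 genes as a percentage of gene counts (vertical axis) against the percentage of reads in no annotated gene (horizontal axis), 1 point per library. All 6 NR libraries lie below all 6 control libraries, and the NR libraries at 28.5% and 26.2% on the horizontal axis lie near the other NR libraries on the vertical one.

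Markers of other cell types moved with NR as well. Of the 5 megakaryocyte markers, 4 were lower averaged over both cell types (Itga2b, Pf4, Gp9 and Gp1bb), and the summed level of the list was 1580 to 2193 CPM in NR LT-HSCs, against 2435 to 2771 CPM in control LT-HSCs, and 1636 to 2138 CPM in NR ST-HSCs, against 2681 to 2953 CPM in control ST-HSCs. Of the 5 monocyte and macrophage markers, 2 were higher (Cd68 and Tyrobp), with sums of 22.4 to 23.6 CPM in NR LT-HSCs, against 12.3 to 15.7 CPM in control LT-HSCs, and 34.3 to 57.4 CPM in NR ST-HSCs, against 12.4 to 14.0 CPM in control ST-HSCs. Of 5 HSC genes 3 were higher averaged over both cell types, 3 in ST-HSCs and 0 in LT-HSCs, and 1 of 5 myeloid markers was higher. These lists are short, and among all genes at 5 CPM or more 28.6% were lower and 12.7% higher. The erythroid markers summed to at most 11.1 CPM in any library. No defining marker of the megakaryocyte list was at 0 on average. The part of these markers in the results on the respiratory genes was not tested. Without the 2 libraries with over 20% of reads in no gene, 35 of the 48 genes were lower averaged over both cell types (median -0.24), 28 in LT-HSCs and 17 in ST-HSCs, on the same genes tested. In that fit 2102, 877 and 1229 of all 19830 genes were lower.

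**Figure D2:**
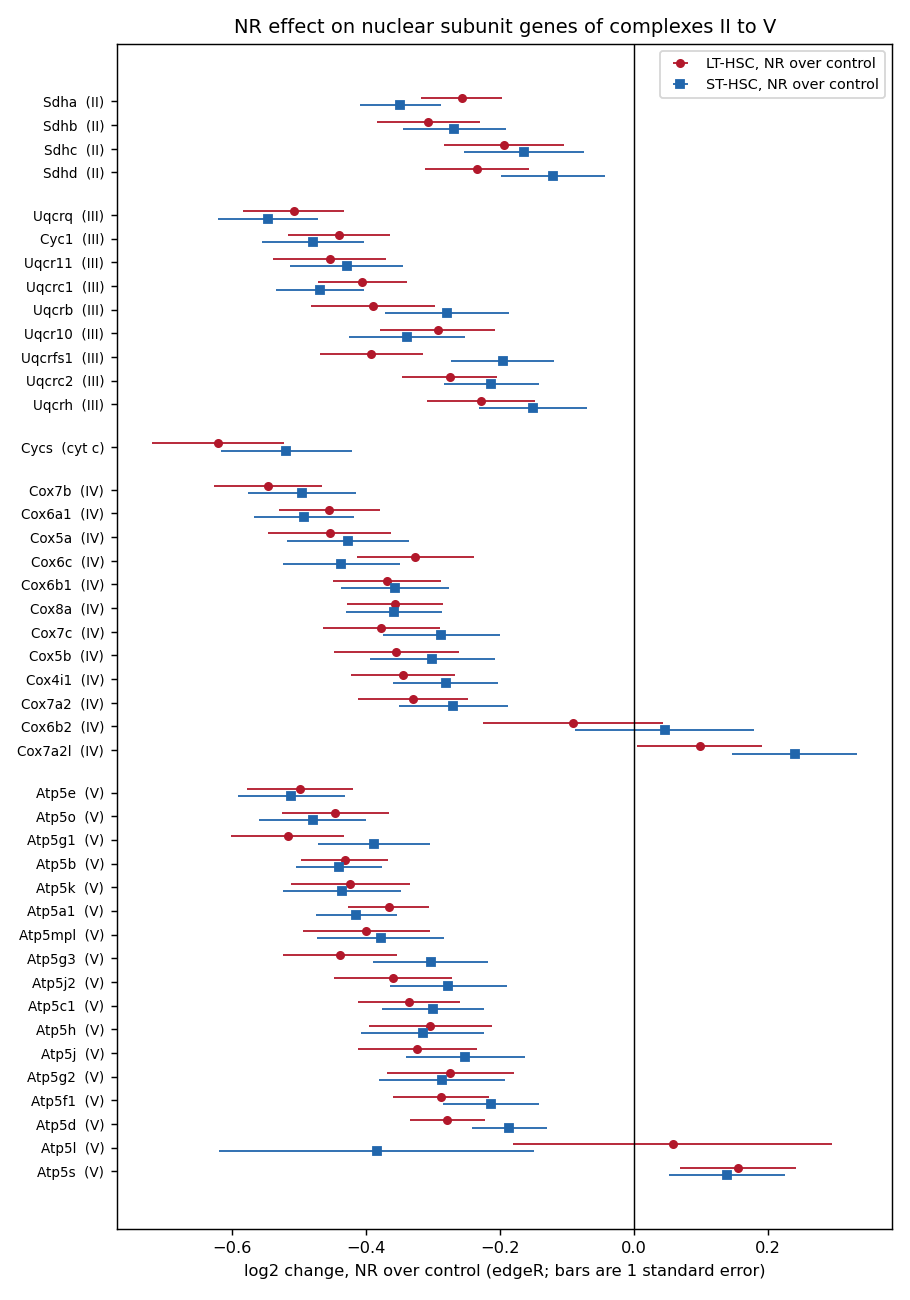
Log2 change with NR over control for each gene at a mean of at least 5 CPM (rows, grouped by complex and ordered by averaged change), in LT-HSCs and ST-HSCs; bars are 1 standard error. Most points lie between -0.6 and -0.1 in both cell types, while Cox7a2l and Atp5s lie above 0 in both and Cox6b2 lies on both sides of 0.

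Complex II had the smallest median change. Of its 4 genes, 3 were lower averaged over both cell types, 2 in LT-HSCs and 2 in ST-HSCs, with a median averaged log2 change of -0.23. Among all genes at 50 CPM or more, 36.2% were lower averaged over both cell types. Sdha, the flavoprotein that oxidises succinate, had 552, 561 and 504 CPM in NR LT-HSCs, against 645, 658 and 630 CPM in control LT-HSCs. In ST-HSCs it had 517, 527 and 472 CPM with NR, against 625, 627 and 678 CPM in control culture. Every NR sample was below every control sample, and the averaged change was -0.30 ± 0.04 (SE, adjusted p = 0.000205). Sdhb, the iron-sulfur subunit that takes electrons from Sdha, had 180, 191 and 162 CPM in NR LT-HSCs, against 213, 238 and 209 CPM in control LT-HSCs, and 198, 182 and 170 CPM in NR ST-HSCs, against 221, 223 and 218 CPM in control ST-HSCs. The groups did not overlap in either cell type, with an averaged change of -0.29 ± 0.05 (adjusted p = 0.00163).

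The membrane anchors of complex II had smaller changes. Sdhd had 225, 254 and 210 CPM in NR LT-HSCs, against 259, 284 and 268 CPM in control LT-HSCs, and 250, 255 and 223 CPM in NR ST-HSCs, against 272, 269 and 251 CPM in control ST-HSCs. The groups overlapped in ST-HSCs, and the averaged change was -0.18 ± 0.05 (adjusted p = 0.030). That call was lost in 25 of 33 other settings. Sdhc had 97.5, 117 and 97.6 CPM in NR LT-HSCs, against 120, 124 and 114 CPM in control LT-HSCs, and 120, 115 and 97.0 CPM in NR ST-HSCs, against 124, 122 and 126 CPM in control ST-HSCs. It was not called (-0.18 ± 0.06, adjusted p = 0.058), and its groups overlapped in LT-HSCs.

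In complex III, 9 of 9 genes were lower averaged over both cell types, 8 in LT-HSCs and 5 in ST-HSCs, with a median averaged log2 change of -0.33. With 1 library left out, the averaged count ran from 4 to 9. For all 9, each NR sample lay below each control sample in both cell types, against 11.5% of all genes tested. The share of all genes at 50 CPM or more that were lower averaged over both cell types was 36.2%. Uqcrq, a small membrane subunit, changed most of the 9. It had 75.0, 87.1 and 81.4 CPM in NR LT-HSCs, against 108, 124 and 114 CPM in control LT-HSCs, and 82.0, 85.0 and 76.9 CPM in NR ST-HSCs, against 115, 122 and 120 CPM in control ST-HSCs. Its averaged change was -0.53 ± 0.05 (adjusted p = 1.63e-05), so that the level fell by 30.6%.

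Cyc1, cytochrome c1, is the haem subunit that reduces cytochrome c. It had 158, 182 and 144 CPM in NR LT-HSCs, against 211, 230 and 215 CPM in control LT-HSCs, and 156, 157 and 154 CPM in NR ST-HSCs, against 225, 216 and 210 CPM in control ST-HSCs. Its averaged change was -0.46 ± 0.05 (adjusted p = 4.95e-05). Uqcrc1, a core subunit on the matrix side, had 351, 390 and 326 CPM in NR LT-HSCs, against 481, 466 and 466 CPM in control LT-HSCs, and 321, 353 and 339 CPM in NR ST-HSCs, against 476, 446 and 479 CPM in control ST-HSCs, with an averaged change of -0.44 ± 0.05 (adjusted p = 2.64e-05). The other core subunit, Uqcrc2, changed by -0.24, and Uqcrfs1, the Rieske iron-sulfur protein, by -0.29. The smallest change of the 9 was that of Uqcrh, the hinge protein, at -0.19 ± 0.06 (adjusted p = 0.027), a call lost in 23 of 33 other settings.

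Cycs, the soluble carrier between complexes III and IV, had 37.9, 46.2 and 40.2 CPM in NR LT-HSCs, against 60.7, 68.1 and 62.3 CPM in control LT-HSCs. In ST-HSCs it had 51.0, 51.1 and 42.2 CPM with NR, against 64.3, 71.2 and 71.3 CPM in control culture. The groups did not overlap, and its averaged change of -0.57 ± 0.07 (adjusted p = 6.55e-05), by which the level fell by 32.6%, was the largest among the genes at 5 CPM or more. Cycs also encodes a protein that, once released from mitochondria, is known to activate caspases in cell death.

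**Figure D3:**
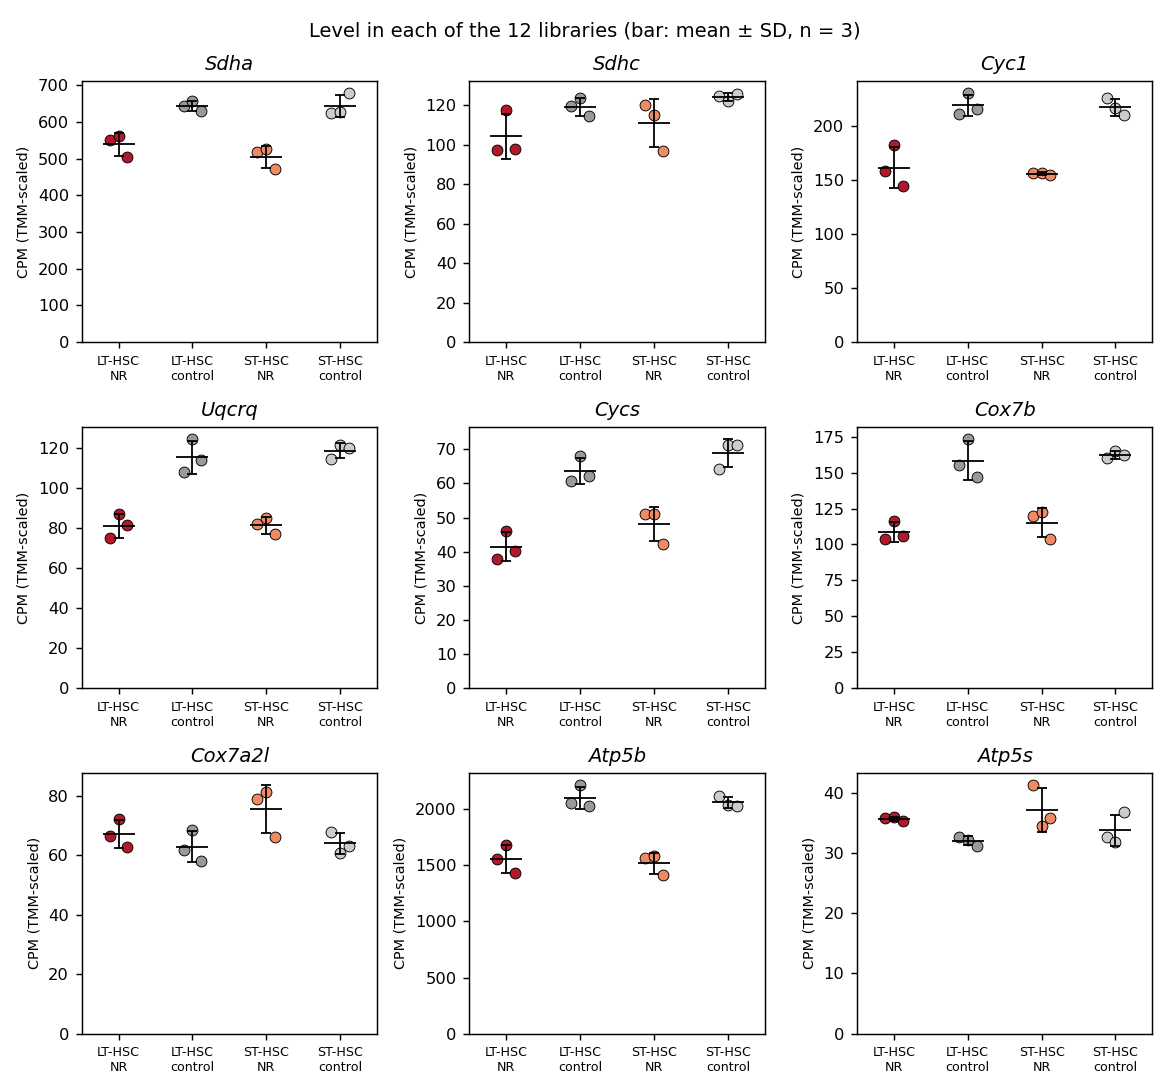
Level in CPM in each of the 12 libraries (points) for 9 of the genes, with the mean and SD of each group of 3 (bars); vertical axes start at 0. For Uqcrq, Cyc1, Cycs, Cox7b, Atp5b and Sdha the NR points lie below the control points in both cell types, while Cox7a2l overlaps in both and Atp5s lies higher with NR in LT-HSCs.

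In complex IV, the 12 genes at 5 CPM or more held 10 that were lower averaged over both cell types, and the same number was lower in LT-HSCs and in ST-HSCs, with a median averaged log2 change of -0.34. These 10 are the forms that most tissues use: Cox4i1, Cox5a, Cox5b, Cox6a1, Cox6b1, Cox6c, Cox7a2, Cox7b, Cox7c and Cox8a. Averaged over both cell types, 28.6% of all genes at 5 CPM or more were lower, and 36.2% of those at 50 CPM or more. Cox7b had 104, 116 and 106 CPM in NR LT-HSCs, against 155, 173 and 147 CPM in control LT-HSCs, and 119, 122 and 104 CPM in NR ST-HSCs, against 160, 165 and 162 CPM in control ST-HSCs. Its averaged change was -0.52 ± 0.06 (adjusted p = 3.09e-05). Cox6a1 had 199, 221 and 188 CPM in NR LT-HSCs, against 266, 297 and 270 CPM in control LT-HSCs, and 210, 216 and 186 CPM in NR ST-HSCs, against 281, 295 and 284 CPM in control ST-HSCs, with -0.47 ± 0.05 (adjusted p = 3.66e-05). Cox8a had 213, 235 and 211 CPM in NR LT-HSCs, against 263, 298 and 282 CPM in control LT-HSCs, and 219, 229 and 194 CPM in NR ST-HSCs, against 280, 272 and 271 CPM in control ST-HSCs, with -0.36 ± 0.05 (adjusted p = 0.00022). In all 3 the groups did not overlap in either cell type.

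Cox7a2l and Cox6b2 were the 2 genes of complex IV at 5 CPM or more that were not called lower. Cox7a2l encodes a protein that joins complexes III and IV into supercomplexes and is not needed for the oxidase itself. It had 66.6, 72.2 and 63.0 CPM in NR LT-HSCs, against 62.0, 68.5 and 58.1 CPM in control LT-HSCs, and 79.0, 81.4 and 66.3 CPM in NR ST-HSCs, against 67.9, 60.9 and 63.3 CPM in control ST-HSCs. Its groups overlapped in both cell types and its averaged change of 0.17 ± 0.07 was not called (adjusted p = 0.088). In 12 of 33 other settings it was called higher, among them DESeq2 (0.23, adjusted p = 0.00255) and edgeR with the sample number as a block (0.17, adjusted p = 0.035), and its change stayed above 0 in all 33, from 0.14 to 0.28. Cox6b2, best known as the testis form of Cox6b1, had 28.8, 28.9 and 23.8 CPM in NR LT-HSCs, against 26.1, 28.7 and 32.1 CPM in control LT-HSCs, and 31.3, 33.2 and 22.9 CPM in NR ST-HSCs, against 29.3, 27.0 and 28.5 CPM in control ST-HSCs. Its change of -0.02 ± 0.09 (adjusted p = 0.90) took the other sign in 19 of 33 other settings.

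Several subunits of complex IV exist in a widespread form and in forms known from muscle, lung or testis. Levels per length, in CPM per kilobase of the principal transcript (the median length if several) and averaged over the 12 libraries, were dominated by the widespread forms. Cox4i1 stood at 434 CPM per kilobase and Cox4i2 at 2.09. Cox6a1 stood at 425 and Cox6a2 at 0.302, Cox7a2 at 227 and Cox7a1 at 1.53, and Cox7b at 136 and Cox7b2 at 0.353. Cox8a stood at 450, with Cox8b at 0.0144 and Cox8c at 0.173. Cox6b1 stood at 411 and Cox6b2 at 51.3, so Cox6b2 was the one alternative form of complex IV present at more than a few CPM per kilobase.

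Of the rare forms, Cox4i2 was lower with NR. This form of subunit 4 is known from lung and as part of oxygen sensing. It had 0.882, 1.65 and 2.11 CPM in NR LT-HSCs, against 2.68, 2.79 and 2.74 CPM in control LT-HSCs, and 0.331, 0.565 and 0.760 CPM in NR ST-HSCs, against 1.02, 1.43 and 1.38 CPM in control ST-HSCs. The groups did not overlap, and the averaged change was -1.02 ± 0.27 (adjusted p = 0.016) at 12 to 88 counts per library. The call was lost in 5 of the 32 other settings that tested it. Cox6a2, the muscle form, had 0.0588, 0.0343 and 0 CPM in NR LT-HSCs, against 0.305, 0.199 and 0.0713 CPM in control LT-HSCs, and 0, 0.0942 and 0.242 CPM in NR ST-HSCs, against 0.426, 0.358 and 0.674 CPM in control ST-HSCs. At no more than 22 counts in a library it was not called (adjusted p = 0.11). Cox7a1 ran from 0.185 to 0.755 CPM in NR LT-HSCs, against 0.565 to 0.823 CPM in control LT-HSCs, and from 0.622 to 0.745 CPM in NR ST-HSCs, against 0.131 to 0.705 CPM in control ST-HSCs. Cox7b2 had at most 0.656 CPM and Cox6c2 at most 0.380 CPM in any library. These 3 were not called, and their groups overlapped in both cell types.

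**Figure D4:**
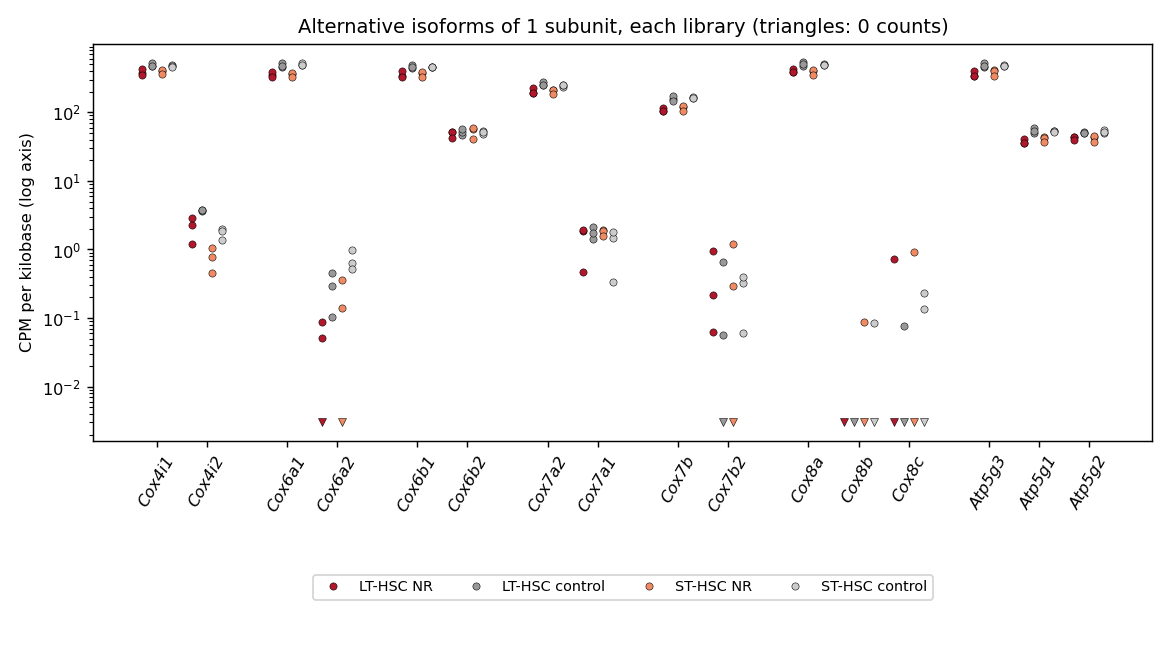
CPM per kilobase of principal transcript (log axis) in each library for subunits of complexes IV and V with alternative forms; triangles at the lower edge mark libraries with 0 counts. The forms Cox4i1, Cox6a1, Cox6b1, Cox7a2, Cox7b, Cox8a and Atp5g3 average between 136 and 450, Cox6b2 and the genes Atp5g1 and Atp5g2 near 50, and the other forms below 3.

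In complex V, 15 of 17 genes were lower averaged over both cell types, 13 in LT-HSCs and 12 in ST-HSCs, with a median averaged log2 change of -0.32. Averaged over both cell types, 36.2% of all genes at 50 CPM or more were lower. Atp5b, the catalytic beta subunit, was the most abundant of all 50 genes per length, at 944 CPM per kilobase. It had 1558, 1682 and 1428 CPM in NR LT-HSCs, against 2052, 2214 and 2030 CPM in control LT-HSCs, and 1562, 1582 and 1413 CPM in NR ST-HSCs, against 2120, 2034 and 2029 CPM in control ST-HSCs. Its averaged change was -0.44 ± 0.05 (adjusted p = 2.17e-05). Atp5a1, the alpha subunit that alternates with beta in the head, had 1014, 1049 and 898 CPM in NR LT-HSCs, against 1309, 1266 and 1241 CPM in control LT-HSCs, and 986, 996 and 919 CPM in NR ST-HSCs, against 1320, 1255 and 1290 CPM in control ST-HSCs, with -0.39 ± 0.04 (adjusted p = 2.98e-05). The groups did not overlap for either gene.

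The central stalk, which turns inside the head, is made of the products of Atp5c1, Atp5d and Atp5e. Atp5e, the epsilon subunit, had 104, 118 and 101 CPM in NR LT-HSCs, against 145, 162 and 149 CPM in control LT-HSCs, and 112, 114 and 97.6 CPM in NR ST-HSCs, against 156, 153 and 152 CPM in control ST-HSCs. Its averaged change of -0.50 ± 0.06 (adjusted p = 3.42e-05) was the largest fall in complex V. Atp5c1 changed by -0.32 and Atp5d by -0.23, and both were called. In the peripheral stalk, which holds the head still, Atp5o changed by -0.46, Atp5h by -0.31, Atp5j by -0.29 and Atp5f1 by -0.25, and all 4 were called. Atp5o shares exon bases with other genes in GENCODE M21, 12.3% on its own strand and 35.6% on the other, and the strand setting of the counts is not given in the sources used here.

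The ring that protons turn is made of 1 protein encoded by 3 genes. Atp5g3 stood at 428 CPM per kilobase, Atp5g2 at 46.7 and Atp5g1 at 46.3, and the last 2 do not differ beyond their spread. That likeness hangs on the lengths used, 2675.5 bases for Atp5g1 and 586 for Atp5g2, whose error the spread leaves out. Before division by length, Atp5g1 averaged 124 CPM and Atp5g2 27.4 CPM. All 3 were lower averaged over both cell types: the log2 change was -0.45 for Atp5g1, -0.37 for Atp5g3 and -0.28 for Atp5g2. The small membrane subunits Atp5k (-0.43), Atp5mpl (-0.39) and Atp5j2 (-0.32) were also lower.

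The 2 genes of complex V that were not called were Atp5l and Atp5s. Atp5l, a membrane subunit known for helping pairs of ATP synthases form, had 12.4, 8.21 and 7.21 CPM in NR LT-HSCs, against 11.6, 5.94 and 9.23 CPM in control LT-HSCs, and 9.19, 9.11 and 12.2 CPM in NR ST-HSCs, against 13.9, 13.2 and 12.7 CPM in control ST-HSCs. Its change was -0.16 ± 0.17 (adjusted p = 0.59). The table also lists pseudogenes of Atp5l, and how reads that match several copies were counted is not given in the sources used here, so its level is uncertain, as are those of other genes with near-identical copies, such as Cox6c and Uqcrh. Atp5s, coupling factor B, had 35.8, 36.0 and 35.3 CPM in NR LT-HSCs, against 32.7, 32.2 and 31.2 CPM in control LT-HSCs, and 41.3, 34.4 and 35.8 CPM in NR ST-HSCs, against 32.6, 31.9 and 36.7 CPM in control ST-HSCs. In LT-HSCs it was the only one of the 48 genes with every NR sample above every control sample, where 8.57% of all genes were; in ST-HSCs 0 were, against 11.9% of all genes. Its averaged change of 0.15 ± 0.06 was not called (adjusted p = 0.11), and 7 of 33 other settings called it higher, DESeq2 among them (0.21, adjusted p = 0.0091).

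Between complexes, the order of the averaged medians over genes at 5 CPM or more was Cycs (-0.57), IV (-0.34), III (-0.33), V (-0.32) and II (-0.23). Complex II had the smallest fall and Cycs the largest in all 33 other settings. These settings reuse the same libraries, and other scaling factors move all genes nearly alike, so they could hardly change this order. With relative log expression factors, complex II went to -0.17 and Cycs to -0.51. Cycs is also 1 gene beside medians of several, and Uqcrq (-0.53) and Cox7b (-0.52) lie within its standard error of 0.07. The medians of III, IV and V differ by less than 1 standard error of any single gene's change. The counts of genes called lower over both cell types varied more when 1 library was left out, with the filter applied again or not. They ran from 0 to 4 in complex II, 4 to 9 in III, 5 to 10 in IV and 7 to 15 in V, among genes at 5 CPM or more. Summed counts give a comparison without scaling factors. Complex II had 22.7, 22.2 and 22.5 counts per 100 counts of complex V in NR LT-HSCs, against 20.6, 20.4 and 20.5 in control LT-HSCs. In ST-HSCs it had 22.2, 22.1 and 22.2 with NR, against 20.1, 20.5 and 21.1 in control culture. The NR samples were higher without overlap in both cell types. Within 1 cell type, with 3 samples a group, an exact permutation test cannot give a two-sided p below 0.10. No test of these ratios was run, within a cell type or over both.

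Atp5a1 and Atp5b made up 52.1% to 56.1% of the complex V counts. Without them, the ratio was 48.0 to 50.8 in NR LT-HSCs, against 44.9 to 46.9 in control LT-HSCs, and 46.4 to 47.9 in NR ST-HSCs, against 44.9 to 47.0 in control ST-HSCs, where the groups overlap. The sums of complexes III and IV did not separate from that of complex V. Complex III had 27.2 to 28.0 counts per 100 of complex V in NR LT-HSCs, against 27.4 to 27.9 in control LT-HSCs, and 27.1 to 28.6 in NR ST-HSCs, against 27.4 to 28.1 in control ST-HSCs. Complex IV had 35.6 to 37.7 in NR LT-HSCs, against 35.5 to 37.2 in control LT-HSCs, and 36.7 to 38.4 in NR ST-HSCs, against 36.2 to 37.2 in control ST-HSCs. The groups overlapped in each of these comparisons.

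**Figure D5:**
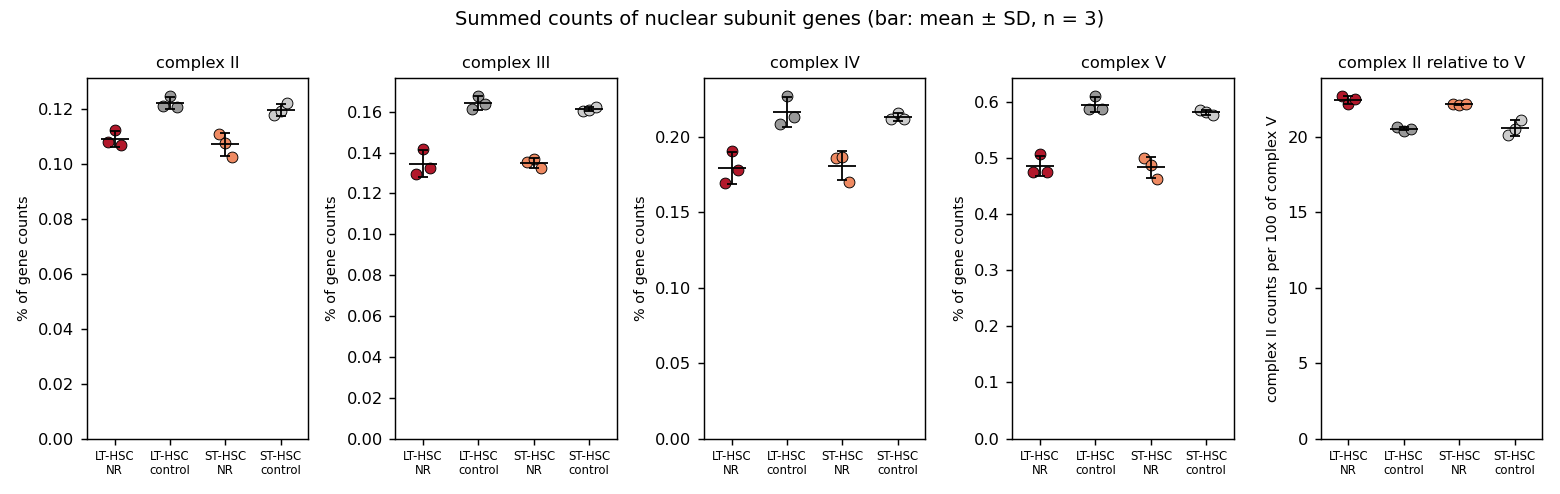
Summed counts of the genes of each complex as a percentage of gene counts, and complex II counts per 100 counts of complex V (right), in each library (points) with the mean and SD of each group of 3 (bars); vertical axes start at 0. All 4 complexes lie lower with NR in both cell types, and the ratio of complex II to complex V lies higher with NR, at 22.1 to 22.7 against 20.1 to 21.1 in control libraries.

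The effect of NR was not shown to differ between LT-HSCs and ST-HSCs for any of the 48 genes. In edgeR's test of the difference, 0 were called, where 0.0101% of all genes tested were, and DESeq2 also called 0. An unadjusted p under 0.05 in edgeR was found for 0 of the 48, and for 1201 of all 19830 genes. The median of the differences was -0.04, and among genes at 5 CPM or more their standard errors ran from 0.08 to 0.33. The largest difference in that set was that of Atp5l (0.44 ± 0.33) and the next of Uqcrfs1 (-0.20 ± 0.11). Of the 48 genes, 29 were called lower in both cell types, 5 in LT-HSCs and not in ST-HSCs (Uqcrb, Uqcrc2, Uqcrfs1, Atp5f1 and Atp5j), and 1 in ST-HSCs and not in LT-HSCs (Atp5h). These 6 were not called for the difference, and their changes were below 0 in both cell types. Among all genes tested, 7.58% were called lower in LT-HSCs and 11.1% in ST-HSCs. The share of all genes called lower in both was not counted.

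Between the cell types themselves, few differences were called. In control culture, edgeR called 0 of 48 for LT-HSCs against ST-HSCs, 2 had an unadjusted p under 0.05 and DESeq2 called 0, where 5.01% of all genes were called in either direction. With the sample number as a block, edgeR called Atp5l there (-0.62, adjusted p = 0.036). With NR 1 was called, Cox4i2, where 6.07% of all genes were. Cox4i2 was higher in LT-HSCs by 1.48 ± 0.40 on the log2 scale with NR (adjusted p = 0.045) and by 1.10 ± 0.38 in control culture (adjusted p = 0.15), with the levels given above. The call with NR was lost in 23 of 33 other settings, including each of 10 of the 12 that left out 1 library on the same genes tested. The median log2 change of the 48 genes between LT-HSCs and ST-HSCs was 0.00 in control culture and -0.05 with NR.

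Other genes of the pathway give the setting. Of 36 nuclear subunits of complex I, which takes electrons from NADH, 31 were lower averaged over both cell types and 0 higher (median log2 change -0.29). Of the assembly factors, which build the complexes without staying in them, 3 of 6 for complex III, 8 of 20 tested for complex IV, 1 of 4 for complex II and 1 of 4 in the list for complex V were lower and 0 higher. Among all genes at 5 CPM or more, 28.6% were lower and 12.7% higher averaged over both cell types, and among those at 50 CPM or more 36.2% were lower, so the counts of the assembly factors lie near the background. Whether these shares differ from those of the subunits was not tested. Uqcc2, which helps make cytochrome b, averaged 49.9 ± 3.52 CPM in NR LT-HSCs and 73.3 ± 2.08 CPM in control LT-HSCs, and 52.3 ± 4.62 CPM in NR ST-HSCs and 73.0 ± 5.76 CPM in control ST-HSCs (SD, n = 3 each), an averaged log2 change of -0.52 ± 0.06. Cox15, which makes haem a for complex IV, changed by -0.35 ± 0.06, Atpaf1, an assembly factor of the ATP synthase head, by -0.24 ± 0.08 (adjusted p = 0.038), and Sdhaf3, which helps mature Sdhb, by -0.27 ± 0.08 (adjusted p = 0.029). Atpif1, the inhibitor of the ATP synthase, was not called (-0.02 ± 0.06, adjusted p = 0.83).

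Of the subunits encoded by mitochondrial DNA, 2 of 6 in complexes III to V could be tested. mt-Cytb, the cytochrome b of complex III, was lower averaged over both cell types (-0.28 ± 0.05, adjusted p = 0.00053), and mt-Co1, the catalytic subunit of complex IV, was not called (-0.11 ± 0.05, adjusted p = 0.15). mt-Co2 and mt-Atp8 are listed at 0 in all libraries, although mt-Co1 averaged 1330 CPM, so the counts of these genes cannot be read as levels. Of 10 regulators of respiratory genes, 3 were lower and 1 higher, shares near those of all genes at 5 CPM or more (28.6% and 12.7%). Ppargc1b, a coactivator that raises mitochondrial gene expression, averaged 13.0 ± 1.42 CPM in NR LT-HSCs and 20.7 ± 2.07 CPM in control LT-HSCs, and 11.5 ± 1.68 CPM in NR ST-HSCs and 20.9 ± 2.24 CPM in control ST-HSCs (SD, n = 3 each), an averaged log2 change of -0.77 ± 0.09. Its relative Pprc1 changed by -0.32 ± 0.06. Tfam, a factor that acts in the transcription of mitochondrial DNA and packs it, changed by -0.16 ± 0.05 (adjusted p = 0.038). Yy1 was higher (0.28 ± 0.06), and Nrf1 was not called (-0.14 ± 0.05, adjusted p = 0.067).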

How the data were processed

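RNA of 12 libraries of sorted, cultured mouse HSCs was measured by bulk RNA sequencing, from 2.5 ng RNA per sample by SMART-seq v4 and Nextera XT, per the labels' protocols. The deposited values are raw read counts per gene. Per the submitters' processing notes, FastQC 0.11.2, STAR 2.5.0b and HTSeq 0.6.1 were used; for genome build, annotation, strand setting and read filters, the labels and notes give nothing. Ensembl identifiers were given symbols from GENCODE M21 (53274 of 53465 matched), and groups were taken from the labels. HTSeq's summary rows were removed first. Reads in no gene made up 8.69% to 28.5% of reads and ambiguous ones 3.30% to 4.38%. The table held 0 columns of other samples. No 2 libraries of a group were duplicates (chi-square per degree of freedom 6.30 to 37.2).

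The test was edgeR 4.0.16 (R 4.3.3), quasi-likelihood, two-sided, with TMM factors, filterByExpr by group (minimum count 10, minimum total 15) and 1 fit of all 12 samples with 4 group means. It kept 19830 genes, with 8 residual degrees of freedom and a biological coefficient of variation of 0.402. A gene was called at a Benjamini-Hochberg adjusted p under 0.05 over all genes tested. Comparisons were NR against control in each cell type and averaged, LT-HSCs against ST-HSCs in each culture, and the NR effect between cell types. Lists are described by counts and medians, with no test. Log2 changes carry standard errors and CPM values the SD over 3 samples. Depth limits genes of a few counts, and the errors cover these libraries only. The procedure was also tested on simulated data.

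The genes, the lists beside them and the tests were chosen with earlier results of these data known. Values in every sample are given for the 3 genes of each complex with the smallest averaged p, every tested gene not called there (by range for those of few counts), genes called between the cell types, and Cycs, which was added. Alternative forms of 1 subunit are set beside each other per kilobase of the APPRIS principal transcript in GENCODE M21. For a gene with several principal transcripts, their median length was used. Other genes are given by counts and log2 changes. Alternatives were DESeq2 1.42.0, upper-quartile or relative log expression factors, no filter, a filter at a mean of 5 CPM, the replicate number as a block, fits of only the groups compared, a covariate for unassigned reads, a fit without the 2 libraries with over 20% of them, and leaving out each library, with the filter applied again or on the same genes. A scaling by library totals alone was added after seeing the data.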

Additional observations from a re-analysis of the deposited data

How the results depend on the processing

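The alternatives gave 1740 values for the averaged log2 changes of the 48 genes, the counts of genes lower by complex and the other single values. Of these, 1466 were classed as the same, with sign and call kept for log2 changes. Another 205 lost a call, 24 gained one, 24 turned sign, and 21 were counts by complex that moved. The call of Cycs, Uqcrq, Cyc1, Uqcrc1, Cox7b, Cox6a1, Cox8a, Atp5e, Atp5b and Atp5a1 held in all 33 alternatives. Counts of genes lower ran from 0 to 35 in LT-HSCs, from 1 to 35 in ST-HSCs and, over both, from 17 to 40 when 1 library was left out; with the filter applied again they reached at most 20, 16 and 35, on 20217 to 22205 genes tested. Fewer genes of the whole table were also called lower in each fit with the filter applied again. The cause of the drop was not tested. In the same fits the difference of effects gave 0, the cell types in control culture 0 and with NR 0 to 1, and the medians ran from -0.42 to -0.25 in LT-HSCs, from -0.36 to -0.17 in ST-HSCs and, over both, from -0.35 to -0.22. The count in ST-HSCs was 18 with no filter and 17 without the 2 libraries of many unassigned reads, and its median -0.19 without them and -0.20 with library totals alone, which also gave an averaged median of -0.22. Library totals moved the averaged median of all genes by 0.10, and the gap between it and the members' median was -0.35 with TMM, relative log expression, upper-quartile and no factors, -0.21 with the covariate and -0.16 without the 2 libraries. Relative log expression factors split the averaged calls of all genes into 2351 lower and 2216 higher, against 3189 and 1563 with TMM, and 37 members were then lower. Library totals split them into 2110 and 2869.

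Between LT-HSCs and ST-HSCs 1 member was called in control culture with only the groups compared, the covariate or without the 2 libraries (Cox4i2), and 1 with the replicate block (Atp5l, -0.62, adjusted p = 0.036). With NR, 2 were called with upper-quartile factors and DESeq2 (Cox4i2 and Uqcrfs1), 1 with the stricter filter (Uqcrfs1), and 0 with no filter, only the groups compared or without the 2 libraries. Signs turned only for genes that were never called: Cox6b2 (0.0409 with relative log expression, 0.0408 with DESeq2, 0.0389 with no filter, 0.0295 upper-quartile, 0.0459 stricter filter, 0.0025 covariate, 0.14 without the 2 libraries, 0.0733 library totals, -0.0741 to 0.12 with 1 library left out), Atp5l (-0.275 to 0.0064 with 1 library left out, above 0 without control LT-HSC sample 1 and the filter applied again), Cox7a1 (-0.0861 to 0.410, below 0 without control ST-HSC sample 1) and Cox7b2 (-0.0534 covariate, -0.73 without the 2 libraries).

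Sample numbers are shared between groups. Deviations of same-numbered samples went together in LT-HSCs (correlations of 0.51, 0.25 and 0.71) but not in every pair of ST-HSCs (0.67, -0.06 and 0.55). Samples of unlike number correlated at -0.66 to 0.33 in LT-HSCs and at -0.72 to 0.51 in ST-HSCs. Over the 4 groups the numbers were therefore not taken as pairs. For LT-HSCs alone they could be, although NR sample 1 with control sample 2 (0.33) exceeded the samples numbered 2 (0.25). With the replicate block 37 members were lower in LT-HSCs, 36 in ST-HSCs and, over both, 41, and Cox7a2l was called higher (0.17, adjusted p = 0.035). Calls rose over all genes too: 2014, 2783 and 3662 of 19830 were lower, against 1503, 2193 and 3189 in the main fit.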

Other observations

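Subunits that stand once each in their complex had transcripts at quite different levels per length, averaged over the 12 libraries. In complex II, Sdhd stood at 204 CPM per kilobase, Sdha at 201 and Sdhb at 176, while Sdhc, the other membrane anchor, stood at 36.1. In complex III, Uqcr10 stood at 306 CPM per kilobase, Uqcrb at 268 and Uqcrc1 at 247, while Uqcrfs1 stood at 96.9 and Uqcrc2 at 87.8. Cycs stood at 17.8 CPM per kilobase. These levels rest on 1 length per gene, the median over its principal transcripts where it has several. They also rest on the authors' handling of reads that match several copies, which is not given in the sources used here.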
